A study of Mus musculus with 12 samples.

Results

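The genes described here are 50 genes of ribosome biogenesis, measured in natural killer (NK) cells of mice with the microRNA miR-142 (miR142 WT, here wild type) and without it (miR142 KO, here knockout). The members were chosen by symbol, and each is represented by the probe set with the highest mean signal among those that the platform annotation gives exactly 1 symbol. Of the 50 listed genes, 49 had such a probe set among the 19938 symbols measured, and all 49 were among the 11963 genes that passed the filter on low signal. Noc2l was not analysed here.

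All mice were C57BL6, 7 to 10 weeks old and matched for age and sex, and CD3- NK1.1+ cells were sorted from either tissue. The 12 Affymetrix arrays formed 4 groups of 3 biological replicates, 1 group for each genotype in each tissue. The study asked which genes differ in expression between the genotypes, and the labels do not say how the knockout was made, in which cells it acts or whether animals were pooled. Signals are log2 values after robust multi-array averaging (RMA), so a difference of 1 is a doubling, and levels of different genes cannot be set against each other because probes differ.

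Ribosomes are built in the nucleolus. RNA polymerase I transcribes the ribosomal RNA precursor, small nucleolar ribonucleoproteins (snoRNPs) guide its methylation (box C/D) and pseudouridylation (box H/ACA), and many assembly factors then fold, cut and export the precursors of the small and the large subunit. Cells that grow or divide raise this programme, in which the transcription factor Myc is a known activator. In NK cells, bone marrow holds more dividing precursors than spleen.

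The probe set of the miR-142 gene checked the labels. Its signal lay between 6.77 and 7.58 in wild type spleen and between 7.10 and 8.25 in wild type bone marrow, against 4.05 to 4.59 in knockout spleen and 4.26 to 4.70 in knockout bone marrow. The missing microRNA has a pair of mature arms, shown because they are what separates the genotypes (RefSeq, GRCm38.p6, plus strand, capitals mark the seed, bases 2 to 8). The 5p arm lies at chr11:87756867-87756887 and the 3p arm at chr11:87756903-87756925.
mmu-miR-142a-5p: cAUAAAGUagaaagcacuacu
mmu-miR-142a-3p: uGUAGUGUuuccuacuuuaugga

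The labels' array numbers fall into 2 runs of 7 and 5 arrays, whose meaning the labels do not give. Replicates 1 and 2 of knockout spleen, replicate 3 of wild type spleen and replicates 2 and 3 of wild type bone marrow fell in the later run, and the other 7 in the earlier one. The run was a term in the fit, so fitted differences can depart from differences between group means. In bone marrow the run term changed the median of the members' differences, as given at the end. All 14 listed NK cell markers passed the filter. Their summed linear signal was 48912 to 51454 in wild type spleen, 52895 to 56349 in knockout spleen, 41837 to 46466 in wild type bone marrow and 46076 to 49265 in knockout bone marrow, so wild type bone marrow lay below wild type spleen on every array.

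Promoters of members are shown as background, and no link between motifs and signals was tested. The 3 members printed did not all move in one direction between the genotypes in spleen. RefSeq (GRCm38.p6) gave a window from 250 bases before to 50 bases after the annotated start for 44 of the 50 members. The palindromic E-box CACGTG, the letters that Myc with its partner Max is known to bind, was found in 10 of 44 members (22.7%), against 11.3% of 9559 tested genes and 8.09% of 27025 genes with a window. The ETS-type motif CCGGAAG, searched on both strands, was found in 16 members (36.4%), against 19.5% of tested genes and 9.93% of all genes with a window. Both motifs stood in 6 members (13.6%), against 2.41% of tested genes and 1.12% of all, and they overlapped in none of the windows printed here. These counts describe letters in a window, not binding. The members printed are 3 whose signals are given by array below, on chr11:84513452-84513751 (Aatf, minus strand, an E-box at position -204 and an ETS motif at -45 from the start), chr1:34439579-34439878 (Imp4, plus strand, an E-box at -121) and chr11:51619523-51619822 (Nhp2, plus strand, an ETS motif at -23). Capitals mark the motifs.
Aatf: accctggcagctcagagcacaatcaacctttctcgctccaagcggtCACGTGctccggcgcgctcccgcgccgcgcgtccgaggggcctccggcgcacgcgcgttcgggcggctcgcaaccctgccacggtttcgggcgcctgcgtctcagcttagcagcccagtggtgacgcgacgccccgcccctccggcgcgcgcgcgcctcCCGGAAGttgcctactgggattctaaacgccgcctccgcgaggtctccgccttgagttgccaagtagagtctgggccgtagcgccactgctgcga
Imp4: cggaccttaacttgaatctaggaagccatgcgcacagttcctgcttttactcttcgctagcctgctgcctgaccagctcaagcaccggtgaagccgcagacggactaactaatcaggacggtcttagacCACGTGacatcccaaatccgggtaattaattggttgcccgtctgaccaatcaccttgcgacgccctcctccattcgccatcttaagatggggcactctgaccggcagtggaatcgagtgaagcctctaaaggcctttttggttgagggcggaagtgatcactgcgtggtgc
Nhp2: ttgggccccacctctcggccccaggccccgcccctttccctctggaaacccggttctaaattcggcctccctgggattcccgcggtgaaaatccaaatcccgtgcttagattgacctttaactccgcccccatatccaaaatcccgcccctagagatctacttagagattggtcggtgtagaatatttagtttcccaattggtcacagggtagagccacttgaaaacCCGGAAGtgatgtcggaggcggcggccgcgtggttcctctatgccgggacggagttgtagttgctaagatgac

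In wild type mice, the cells sorted from bone marrow had higher signals of ribosome biogenesis genes than those sorted from spleen. All 49 measured members had a positive difference, with a median of 0.50 on the log2 scale against -0.02 over all tested genes. Of the 49, 22 rose and 0 fell in limma at a Benjamini-Hochberg adjusted p under 0.05, where 4.34% of all tested genes rose and 1.04% fell. The 3 bone marrow arrays all lay above the 3 spleen arrays for 45 members, a pattern seen in 16.4% of tested genes. The array mean over the 49 members was 7.61 ± 0.03 (SD, n = 3) in wild type spleen and 8.16 ± 0.07 in wild type bone marrow. In bulk samples, fewer cells of a type and less RNA per cell cannot be told apart.

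Markers of dividing cells and of other cell types moved in the same comparison, and their part in the members' differences was not tested. Of 34 tested cell cycle genes, 20 rose in wild type bone marrow (median 1.22). Of 9 granulocyte markers above the filter, 7 rose (median 2.03), and the summed signal over all 18 measured was 736 to 1304 in wild type spleen and 4894 to 5767 in wild type bone marrow. The T cell receptor subunits Cd3d, Cd3e and Cd3g rose by 1.46 to 1.95, while the T cell gene Cd28 (0.11) was not called. Differences of the other tested T cell markers, Cd8a, Cd5, Cd6 and Bcl11b, are not given in this or later comparisons. All 14 NK cell markers were lower in bone marrow (median -0.24), and 2 of them, the cytotoxic genes Prf1 (-0.64) and Gzma (-0.38), fell.

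**Figure D1:**
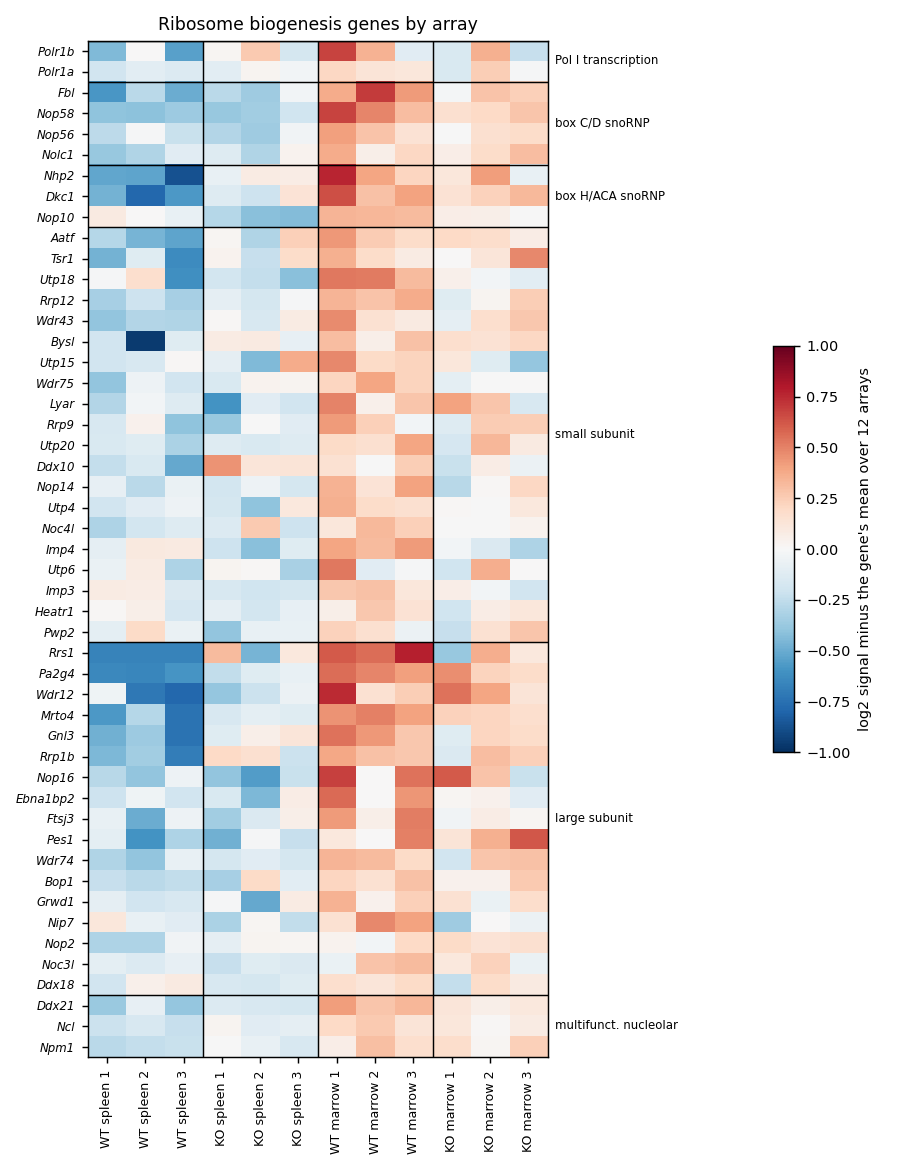
Each row is a member and each column an array. Colour is the log2 signal minus the gene's mean over the 12 arrays, limited to 1 in either direction. Wild type spleen columns are mostly blue and wild type bone marrow columns mostly red, and both knockout groups lie between them for most rows, as the array means over the 49 members do (7.61, 7.75, 7.96 and 8.16 from wild type spleen through knockout spleen and knockout bone marrow to wild type bone marrow).

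By role, all 4 box C/D snoRNP genes rose between the wild type tissues. Fbl, the methyltransferase fibrillarin, rose by 0.97 ± 0.14 (SE, adjusted p = 0.00461), and Nop58, a core protein of the particle, by 0.93 ± 0.10 (adjusted p = 0.000980). The other core protein, Nop56, rose by 0.51 ± 0.11 (adjusted p = 0.0225, lost under 5 of 22 settings), and Nolc1, a chaperone of snoRNPs, by 0.50 ± 0.13 (adjusted p = 0.0455). The value for Fbl rests on 1 of its 2 probe sets. The other is dim, with a mean of 6.05, and its plain difference between wild type group means was 0.18 against 0.95 for the one used. Between knockout and wild type bone marrow the 2 probe sets disagreed in sign, with -0.33 for the one used and 0.27 for the other.

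Of the 3 box H/ACA genes, 2 rose between the wild type tissues. Dkc1, the pseudouridine synthase dyskerin, read 7.19, 6.88 and 7.09 in wild type spleen, 7.54, 7.46 and 7.80 in knockout spleen, 8.31, 7.96 and 8.06 in wild type bone marrow, and 7.80, 7.90 and 7.99 in knockout bone marrow. Its wild type spleen arrays were below all 9 others, and its difference between the wild type tissues was 1.12 ± 0.12 (adjusted p = 0.000980). Nhp2, a core protein of the same particle, read 8.29, 8.27 and 7.93 in wild type spleen, 8.73, 8.89 and 8.88 in knockout spleen, 9.57, 9.19 and 9.02 in wild type bone marrow, and 8.92, 9.22 and 8.73 in knockout bone marrow. Here too the wild type spleen arrays were the lowest 3, and the difference between the wild type tissues was 1.19 ± 0.14 (adjusted p = 0.00115). Nop10, the small core protein of the particle, had a smaller difference of 0.33 ± 0.09 that did not pass (adjusted p = 0.0657), although all its bone marrow arrays were above those of spleen.

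Of the 20 small subunit factors, 6 rose in wild type bone marrow, with a median of 0.46 over the 20. Aatf, which acts early in small subunit maturation, read 7.89, 7.71 and 7.65 in wild type spleen and 8.61, 8.43 and 8.36 in wild type bone marrow, and rose by 0.80 ± 0.11 (adjusted p = 0.00385). Its wild type groups were separate by a wide margin. The other 5 were Tsr1 (0.71), a late assembly factor, Utp18 (0.67), Wdr43 (0.62) and Wdr75 (0.48), which belong to the small subunit processome, and Rrp12 (0.64), known for the export of pre-ribosomes. The smallest difference of the 20 was 0.15.

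Of the 17 measured large subunit factors, 7 rose, with a median of 0.56, and the wild type bone marrow arrays of all 17 lay above those of spleen. Rrs1, which in yeast helps bring the 5S particle to the pre-ribosome, had the largest difference of all 49 members, 1.33 ± 0.21 (adjusted p = 0.00593). Pa2g4, a protein that binds large subunits, read 8.86, 8.85 and 8.92 in wild type spleen, 9.27, 9.39 and 9.44 in knockout spleen, 10.07, 10.00 and 9.92 in wild type bone marrow, and 9.98, 9.73 and 9.70 in knockout bone marrow. Its arrays formed steps, with wild type spleen lowest, knockout spleen next and both bone marrow groups on top, and its rise of 1.14 ± 0.11 had the smallest p of the members (adjusted p = 0.000553). Mrto4, the counterpart of a yeast factor that holds the place of a stalk protein on the pre-ribosome, rose by 1.02 ± 0.11 (adjusted p = 0.000980). Its second probe set gave a plain difference of 0.93 against 0.98 for the one used. Gnl3 (1.01), the nucleolar GTPase nucleostemin, Wdr12 (1.03), a subunit of the complex with Pes1 and Bop1, Rrp1b (0.81) and Ebna1bp2 (0.57) were the others. The partners of Wdr12 did not pass, with 0.52 ± 0.19 for Pes1 (adjusted p = 0.137) and 0.46 ± 0.13 for Bop1 (adjusted p = 0.0693).

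All 3 multifunctional nucleolar proteins rose between the wild type tissues. Ddx21, an RNA helicase, rose by 0.65 ± 0.10 (adjusted p = 0.00593), Ncl (nucleolin) by 0.40 ± 0.09 (adjusted p = 0.0308) and Npm1 (nucleophosmin) by 0.38 ± 0.10 (adjusted p = 0.0449). Npm1 read 10.30, 10.33 and 10.35 in wild type spleen, 10.56, 10.49 and 10.40 in knockout spleen, 10.63, 10.87 and 10.74 in wild type bone marrow, and 10.74, 10.59 and 10.80 in knockout bone marrow. Its wild type tissues were separate, and its call was lost under 14 of 22 alternative settings. Neither polymerase subunit passed. Polr1b differed by 0.69, and Polr1a, the largest subunit of RNA polymerase I, read 7.19, 7.28 and 7.25 in wild type spleen, 7.28, 7.42 and 7.36 in knockout spleen, 7.60, 7.51 and 7.50 in wild type bone marrow, and 7.24, 7.63 and 7.38 in knockout bone marrow. The wild type groups of Polr1a did not overlap, while its knockout bone marrow arrays spread over nearly its whole range.

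The rise between the wild type tissues was present in both runs of array numbers, with all 49 differences positive in each and medians of 0.55 and 0.43. The count of 22 depended on single arrays. It was 8 without wild type bone marrow 1, 10 without wild type spleen 3 and 13 without wild type spleen 1, and 34 with array weights.

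In knockout mice the same step between tissues was smaller. The median difference between bone marrow and spleen was 0.13, and 42 of 49 members were positive. None was called in limma, where 0.092% of tested genes rose and 0.226% fell at the same adjusted p. In the same fit 8 members had an unadjusted p under 0.05, a count not set against all tested genes. Bone marrow arrays were all above spleen arrays for 16 members, against 7.62% of tested genes. The largest differences were those of Pes1 (0.64 ± 0.21, adjusted p = 0.348), a subunit of the complex with Bop1 and Wdr12, and Nop16 (0.53 ± 0.25, adjusted p = 0.557), a large subunit factor. No cell cycle gene or granulocyte marker was called in this comparison either, with medians of 0.51 and 0.08. Without the run as a term, 2 members were called. Within the first run, the only one with both knockout tissues (3 bone marrow arrays and 1 spleen array), the median was 0.15.

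**Figure D2:**
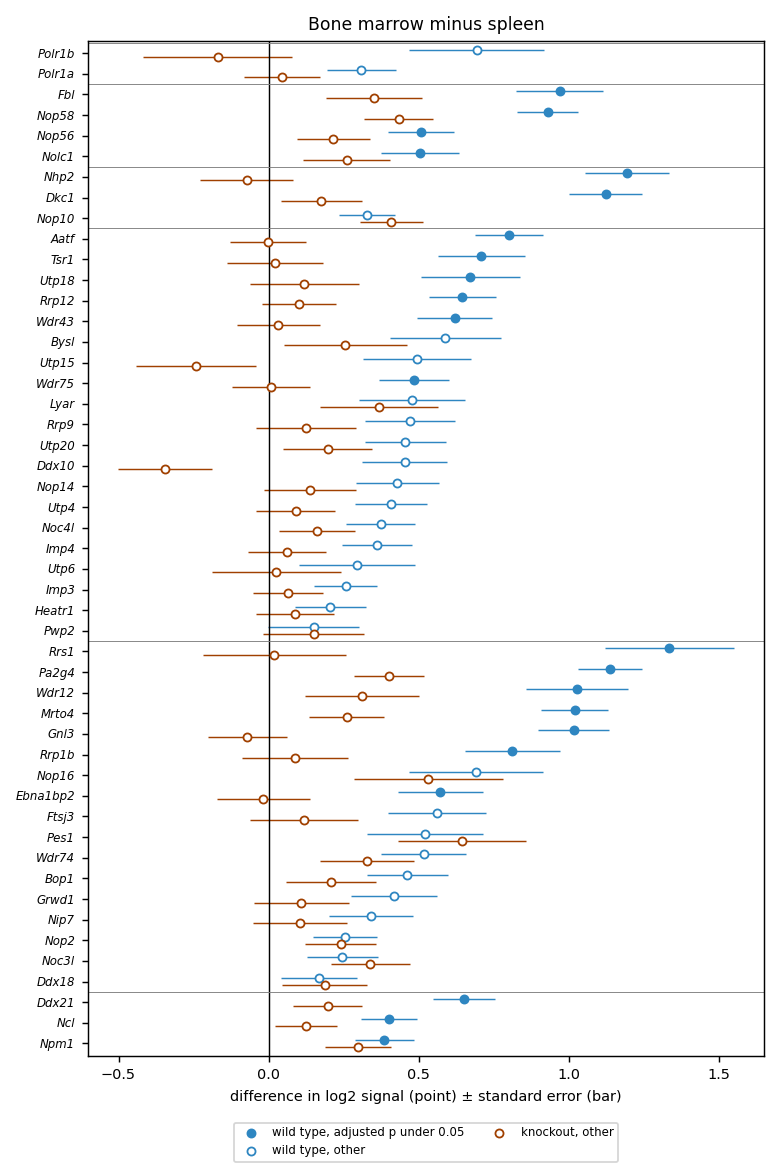
Points are fitted differences in log2 signal between bone marrow and spleen for each member, with bars of 1 standard error, in wild type (blue) and knockout (brown), and filled points passed an adjusted p of 0.05. All 49 blue points lie to the right of 0 and 22 are filled, while no brown point is filled and 7 lie to the left of 0.

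The tissue difference was smaller in knockout than in wild type for 45 of 49 members (91.8%), against 52.0% of tested genes. This is the interaction of genotype and tissue, whose median over the members was -0.32, against -0.01 over all tested genes. Of single members, none passed the adjusted test, where 0.00836% of tested genes (1 gene) did. In the same fit 20 members had an unadjusted p under 0.05, a count not set against all tested genes. The smallest adjusted p was 0.0916, for Gnl3 (-1.09 ± 0.19) and for Nhp2 (-1.26 ± 0.22), followed by 0.179 for Dkc1 (-0.95 ± 0.19).

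In spleen, loss of miR-142 went with more of several of these mRNAs. Of 49 members, 7 rose and 1 fell, where 5.48% of all tested genes rose and 3.63% fell. The median difference of the members was 0.13, against -0.01 over all tested genes, and 37 were positive. Knockout arrays were all above wild type arrays for 14 members, against 14% of tested genes, and all below for 3, where 14% of tested genes were all below. The share of members that rose was above that background, and the share that fell was not. This comparison shares its wild type spleen arrays with the difference between the wild type tissues.

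Of markers, all 6 dendritic cell genes above the filter rose in knockout spleen, with sums over the 11 measured of 4696 to 5290 against 2017 to 2265 in wild type spleen. They were Itgax, Tcf4, Cd74, H2-Aa, H2-Ab1 and H2-Eb1. The other listed dendritic cell genes, Siglech, Flt3, Xcr1, Clec9a and Cd209a, were below the filter. The NK cell gene Gzmb rose by 1.14. The progenitor genes Hoxa9 (1.47) and Meis1 (0.94) rose and Kit fell (-1.39). The T cell genes Cd3d (-1.05) and Cd28 (-0.92) fell, while Cd3e (0.55) and Cd3g (0.44) had positive differences without a call. The granulocyte gene S100a8 rose by 1.81 with overlapping groups, and the granulocyte sums overlapped too, at 1104 to 2268 in knockout spleen. No cell cycle gene was called (median 0.17). The part of these changes in the members' differences was not tested.

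Within the box H/ACA particle, the spleen comparison split the 3 core genes. Nhp2 rose by 0.77 ± 0.14 (adjusted p = 0.00480) and Dkc1 by 0.61 ± 0.12 (adjusted p = 0.00831), each with all knockout arrays above all wild type arrays. Nop10 fell by 0.38 ± 0.09 (adjusted p = 0.0251), a call lost under 5 of 22 alternative settings (adjusted p up to 0.175). It read 10.09, 10.01 and 9.93 in wild type spleen, 9.72, 9.58 and 9.57 in knockout spleen, 10.34, 10.34 and 10.32 in wild type bone marrow, and 10.07, 10.06 and 10.00 in knockout bone marrow. In both tissues the knockout arrays of Nop10 were all below the wild type ones.

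Among small subunit factors, 2 of 20 rose in knockout spleen. Ddx10, an RNA helicase whose yeast counterpart acts in the small subunit processome, read 8.57, 8.66 and 8.30 in wild type spleen, 9.26, 8.94 and 8.94 in knockout spleen, 8.96, 8.81 and 9.06 in wild type bone marrow, and 8.59, 8.89 and 8.75 in knockout bone marrow. Knockout spleen was higher than wild type spleen on every array, by 0.56 ± 0.14 in the fit (adjusted p = 0.0292), a call lost under 3 of 22 settings (adjusted p up to 0.255). Aatf read 8.19, 7.88 and 8.41 in knockout spleen, which reached from just below the highest wild type spleen array to the level of bone marrow, and differed by 0.49 ± 0.11 (adjusted p = 0.0175). That call was lost under 5 of 22 settings, among them the fit without the run term (adjusted p = 0.0698).

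Among large subunit factors, 3 of 17 rose in knockout spleen. Gnl3 read 7.87, 7.98 and 7.60 in wild type spleen, 8.22, 8.40 and 8.46 in knockout spleen, 8.89, 8.78 and 8.61 in wild type bone marrow, and 8.23, 8.56 and 8.53 in knockout bone marrow. The knockout spleen arrays lay above wild type spleen and within or near the range of knockout bone marrow, and the rise was 0.62 ± 0.12 (adjusted p = 0.00639). Pa2g4 rose by 0.50 ± 0.11 (adjusted p = 0.0109) and Mrto4 by 0.44 ± 0.11 (adjusted p = 0.0292). The calls of Nhp2, Dkc1, Gnl3 and Pa2g4 in spleen were each lost under 1 of 22 settings, and that of Mrto4 under 6 (adjusted p up to 0.253). Mrto4 read 7.09, 7.37 and 6.92 in wild type spleen, 7.50, 7.56 and 7.54 in knockout spleen, 8.11, 8.16 and 8.06 in wild type bone marrow, and 7.89, 7.88 and 7.83 in knockout bone marrow, so that its 4 groups did not overlap. Rrp1b, at 0.54 ± 0.16, and Tsr1, at 0.50 ± 0.15, lay just outside the threshold (adjusted p = 0.0530 and 0.0545). The 2 probe sets of Ddx18, an RNA helicase, disagreed in sign, with plain differences of -0.14 for the one used and 0.12 for the other in spleen, and -0.15 and 0.05 in bone marrow.

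No box C/D gene, polymerase subunit or multifunctional nucleolar gene passed in spleen. Nop56 read 8.78, 9.03 and 8.82 in wild type spleen, 8.75, 8.69 and 9.01 in knockout spleen, 9.45, 9.33 and 9.18 in wild type bone marrow, and 9.04, 9.20 and 9.23 in knockout bone marrow. Its spleen groups overlapped almost completely, and the tissues did not. The median of the members was positive within both runs of array numbers (0.17 and 0.17), with 37 and 31 members positive. The count of calls was 2 when wild type spleen 3 was left out, and 4 when knockout spleen 3 was.

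In bone marrow the same members leaned the other way. Only 4 of 49 differences between knockout and wild type were positive, and the median was -0.27, against -0.01 over all tested genes. None rose and 2 fell, where 3.92% of tested genes rose and 4.73% fell, so the share of calls (2 of 49) was near the background. In the same fit 20 members had an unadjusted p under 0.05, a count not set against all tested genes. Knockout arrays were all below wild type arrays for 17 members, against 17.8% of tested genes. They were all above for none of the members, for which no share over all tested genes is given.

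Genes of several marker lists moved in the same comparison, and their part in the members' differences was not tested. Of the cell cycle genes, Mcm3, Mcm4, Mcm5 and Mcm7 of the replicative helicase fell (-0.68 to -1.11), with a median of -0.54 over the 34. Of 9 granulocyte markers 4 fell (median -1.20), and the granulocyte sums were 1739 to 3307 in knockout bone marrow. The T cell genes Cd3d (-3.14), Cd3g (-1.69), Cd28 (-1.28) and Cd3e fell. Dendritic cell sums were 3780 to 4167 in knockout against 1689 to 2045 in wild type bone marrow. Gzmb (1.31), Hoxa9 (1.73) and Meis1 (1.53) rose, and Kit fell (-1.31).

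The 2 members that fell in bone marrow were Imp4 and Gnl3. Imp4, a U3 particle protein of the small subunit processome, read 8.47, 8.66 and 8.65 in wild type spleen, 8.35, 8.14 and 8.44 in knockout spleen, 8.95, 8.87 and 8.99 in wild type bone marrow, and 8.53, 8.41 and 8.25 in knockout bone marrow. Its knockout arrays were below the wild type ones in each tissue, and its fall in bone marrow was -0.56 ± 0.13 (adjusted p = 0.0207), a call lost under 2 of 22 settings. Gnl3 differed by -0.47 ± 0.13 (adjusted p = 0.0487), a call lost under 15 of 22 alternative settings. The next by p were Ebna1bp2 (-0.53), a nucleolar assembly factor, Utp18 (-0.62) and Nhp2 (-0.50), with adjusted p of 0.0567, 0.0598 and 0.0692. Only the first run held both genotypes of bone marrow, with 1 wild type array. There, 45 of 49 differences were negative, with a median of -0.29. No member was called without wild type bone marrow 1 or without knockout bone marrow 3, and 1 was called when any of knockout bone marrow 1, wild type bone marrow 3, knockout spleen 1 or wild type spleen 1 or 2 was left out.

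**Figure D3:**
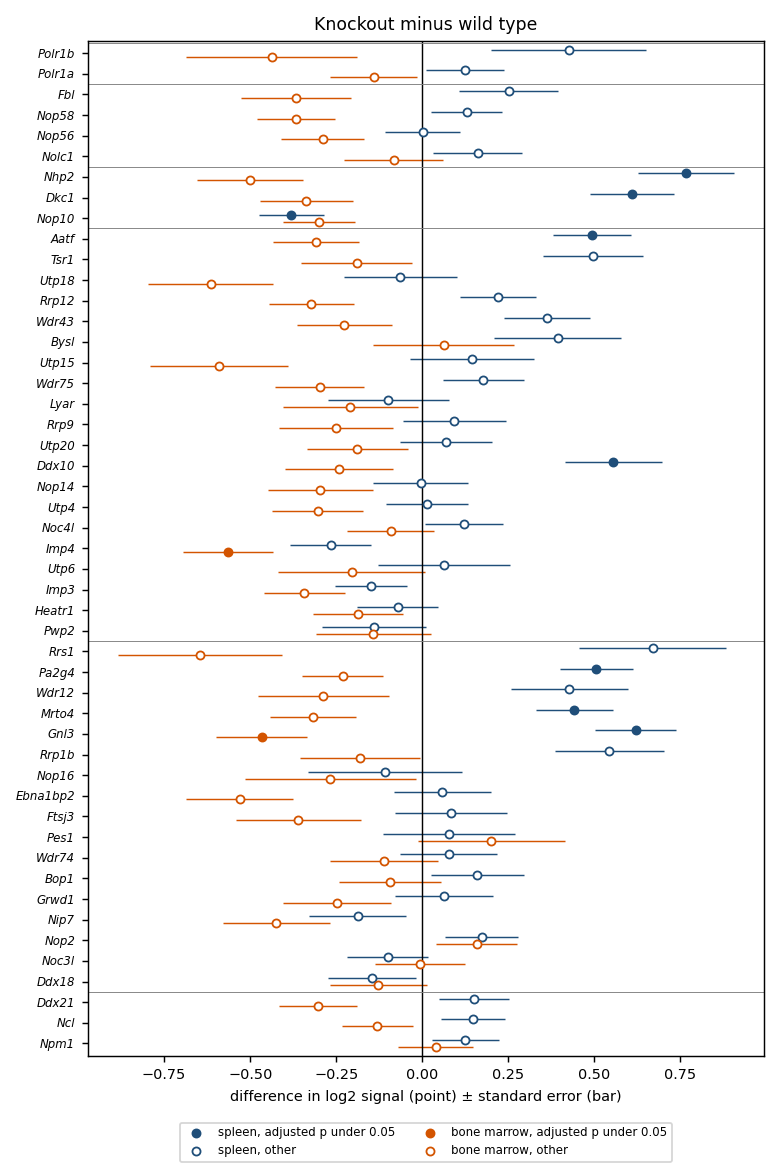
Points are fitted differences in log2 signal between knockout and wild type for each member, with bars of 1 standard error, in spleen (blue) and bone marrow (orange), and filled points passed an adjusted p of 0.05. Most blue points lie to the right of 0 (37 of 49) and most orange points to the left (45 of 49), with 8 blue and 2 orange points filled.

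The differences in spleen and in bone marrow come from 1 fit with a shared run term, so arrays of one tissue bear on the estimate in the other. In that fit the knockout was higher in spleen and lower in bone marrow for 33 of 49 members (67.3%), against 19.1% of tested genes. It was lower in both tissues for 12 (24.5%, against 32.8%) and higher in both for 4 (8.16%, against 28.1%). Plain differences between group means, which share no array between the tissues and were added after seeing the data, gave 32 members higher in spleen and lower in bone marrow (65.3%, against 16.9% of tested genes), 15 lower in both and 2 higher in both. Averaged over both tissues, the median of the members was -0.05, 4 fell and none rose, where 10.3% of tested genes fell and 8.81% rose. The 4 were Nop10 (-0.34 ± 0.06, adjusted p = 0.00316), Imp4 (-0.42 ± 0.08, adjusted p = 0.00372), Imp3, a partner of Imp4 in the U3 particle (-0.25 ± 0.07, adjusted p = 0.0344), and Nip7, a large subunit factor (-0.31 ± 0.10, adjusted p = 0.0460). The calls of Nop10 and Imp4 held under all 21 alternatives run, and the share of calls among the members was near or below the background.

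**Figure D4:**
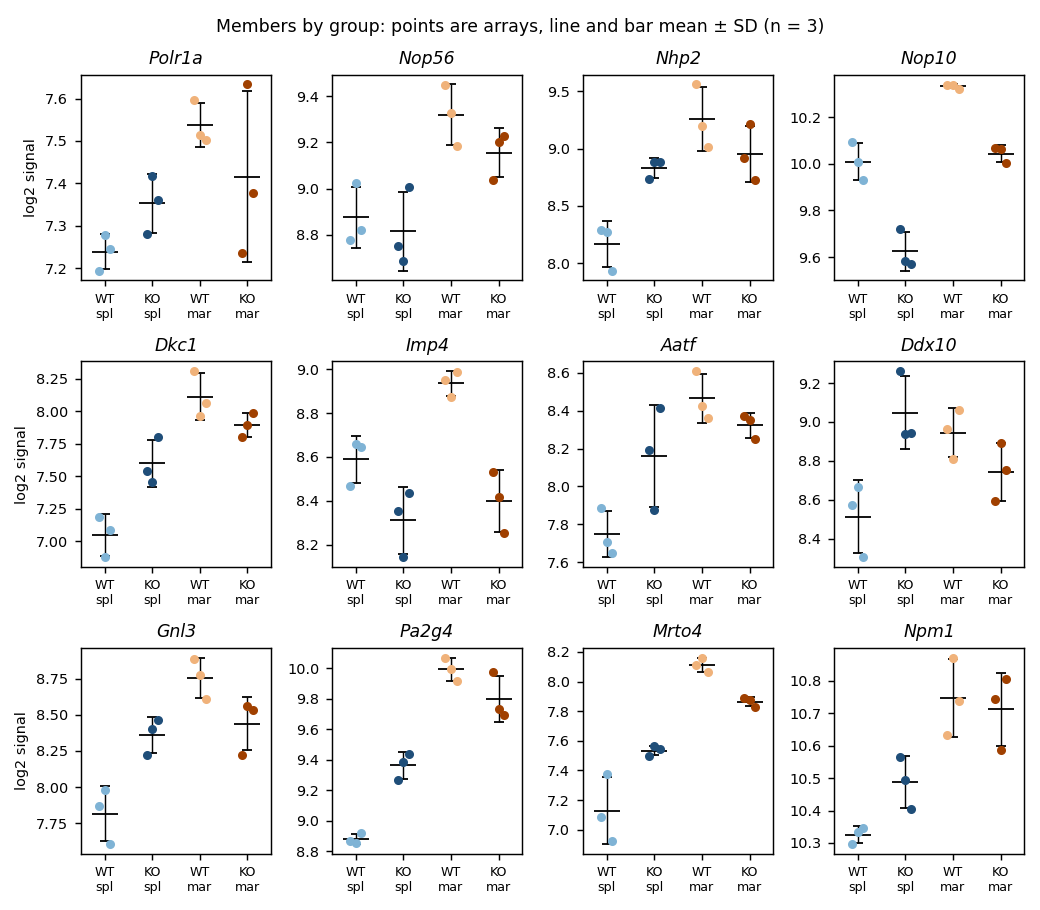
Log2 signal of 12 members, with a point for each array and the mean and SD of the 3 arrays of a group as a line and bar. Nop10 and Imp4 are lower in knockout than in wild type in both tissues, while Nhp2, Dkc1, Gnl3, Pa2g4 and Mrto4 are lowest in wild type spleen and highest on average in wild type bone marrow. Vertical axes differ between panels and do not start at 0.

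The pathway has many other genes. Of 90 further assembly factors, 86 were tested. Between the wild type tissues 22 of these rose and 0 fell, with a median of 0.30, among them Rrp15 (1.22), Pno1 (1.02) and Sdad1 (1.02), factors of large or small subunit assembly. In knockout spleen 2 rose, Pih1d1 (0.52 ± 0.10) and Ruvbl1 (0.49 ± 0.12), which belong to the chaperone machinery that assembles snoRNPs, and none fell, with a median of 0.01. That share of rises was below the 5.48% of all tested genes. In knockout bone marrow 4 fell and none rose, a share at the background of 4.73%, with a median of -0.29. The 4 were Ddx47 (-0.58), Nufip1 (-0.65), Rcl1 (-0.65) and Znhit6 (-0.55). Over both tissues 9 fell and 1 rose, near and below the shares of all tested genes (10.3% and 8.81%). The rise was Pih1d1 (0.28), and the 4 smallest p were those of Pih1d1, Wdr3 (-0.30), Nufip1 (-0.40) and Znhit6 (-0.37).

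The RNA exosome, which trims ribosomal RNA precursors, had 12 of 13 genes tested. Between the wild type tissues 3 rose, Exosc2, Exosc8 and Dis3, by 0.43 to 0.63. In knockout bone marrow Exosc2 (-0.71 ± 0.15, adjusted p = 0.0120) and Exosc3 (-0.66 ± 0.14, adjusted p = 0.0134) fell, and none was called in knockout spleen. Over both tissues Exosc3 (-0.52) and Exosc2 (-0.45) fell and Exosc4 (0.29) rose. Of 13 further genes of the RNA polymerase I machinery, 1 rose between the wild type tissues, Cd3eap, a polymerase subunit (0.61). In knockout bone marrow and over both tissues, Taf1d, a subunit of the promoter selectivity factor, fell (-0.49 and -0.37).

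Genes for the ribosomal proteins themselves had small differences on these arrays. Of 79 listed, 55 were tested. The median difference between the wild type tissues was 0.11, with 2 rises, Rpl8 (0.43 ± 0.09) and Rpl14 (0.61 ± 0.16), and 53 of 55 positive. None was called between genotypes in limma, with 1, 0 and 3 at an unadjusted p under 0.05 in spleen, in bone marrow and over the 2 tissues together, and the medians were 0.00 in spleen and -0.06 in bone marrow. Their array means lay between 11.79 and 11.95, near the top of the scale of these arrays.

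Myc itself was higher wherever wild type spleen was the reference. Myc read 9.27, 9.37 and 9.76 in wild type spleen, 10.75, 10.80 and 10.62 in knockout spleen, 10.76, 10.70 and 10.78 in wild type bone marrow, and 10.78, 10.97 and 11.03 in knockout bone marrow. Wild type spleen was about a log2 unit below the other 3 groups, which lay close together. Myc rose by 1.20 ± 0.12 in knockout spleen (adjusted p = 7.34e-05) and by 1.22 ± 0.12 between the wild type tissues (adjusted p = 0.000553), comparisons that share the wild type spleen arrays. In bone marrow its difference between genotypes was 0.31 ± 0.13 (adjusted p = 0.179), a direction opposite to the median of the members, and its interaction was -0.89 ± 0.19 (adjusted p = 0.190). In each run of array numbers Myc was higher in knockout spleen (1.30 and 1.02). Of 18 tested genes of the Myc network and the TOR pathway, which links growth signals to ribosome production, 3 rose in knockout spleen and none fell. The others were Mxd4, an antagonist that shares Max with Myc (1.00 ± 0.16, adjusted p = 0.00247), and Rheb, an activator of TOR complex 1 (0.46 ± 0.11, adjusted p = 0.0209). Over both tissues Akt1s1, a regulator of that complex, also rose (0.29).

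Across arrays of 1 group, the cell cycle genes and the members can be set side by side. In knockout bone marrow the array means of the cell cycle genes were 8.32, 7.66 and 6.93, a range of 1.39, where those of the 49 members were 7.89, 8.02 and 7.97, a range of 0.13. In wild type bone marrow they were 8.47, 8.02 and 7.70, where those of the members were 8.24, 8.11 and 8.14. The array highest in cell cycle genes was thus lowest in the members in the first group and highest in the second. The summed signal of the cell cycle genes was 5830 to 7012 in wild type spleen, 6219 to 7452 in knockout spleen, 10801 to 17811 in wild type bone marrow and 6411 to 16269 in knockout bone marrow.

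The array mean over the 9 granulocyte markers had the same order of groups as that of the members, 6.07 in wild type spleen, 6.67 in knockout spleen, 6.98 in knockout bone marrow and 7.96 in wild type bone marrow. The cell cycle genes had this order too (6.77, 6.98, 7.63 and 8.06). So did the other assembly factors, the RNA exosome genes and the ribosomal protein genes. Single arrays of the granulocyte and cell cycle lists overlapped between groups, and those of the members did not. The defining granulocyte genes Ly6g, Csf3r and Cxcr2 were below the filter. T cell markers, 8 of 10 above the filter, summed to 1320 to 1436 in wild type spleen, 1004 to 1198 in knockout spleen, 2341 to 2562 in wild type bone marrow and 972 to 1167 in knockout bone marrow. B cell markers (4 of 7 measured above the filter) summed to 215 to 328 over all arrays, with Cd22 lower in wild type bone marrow than in wild type spleen (-1.04), and erythroid markers (3 of 4) to 190 to 239. Progenitor markers (6 of 9) summed to 631 to 892, a sum in which the rises and falls given above offset each other.

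**Figure D5:**
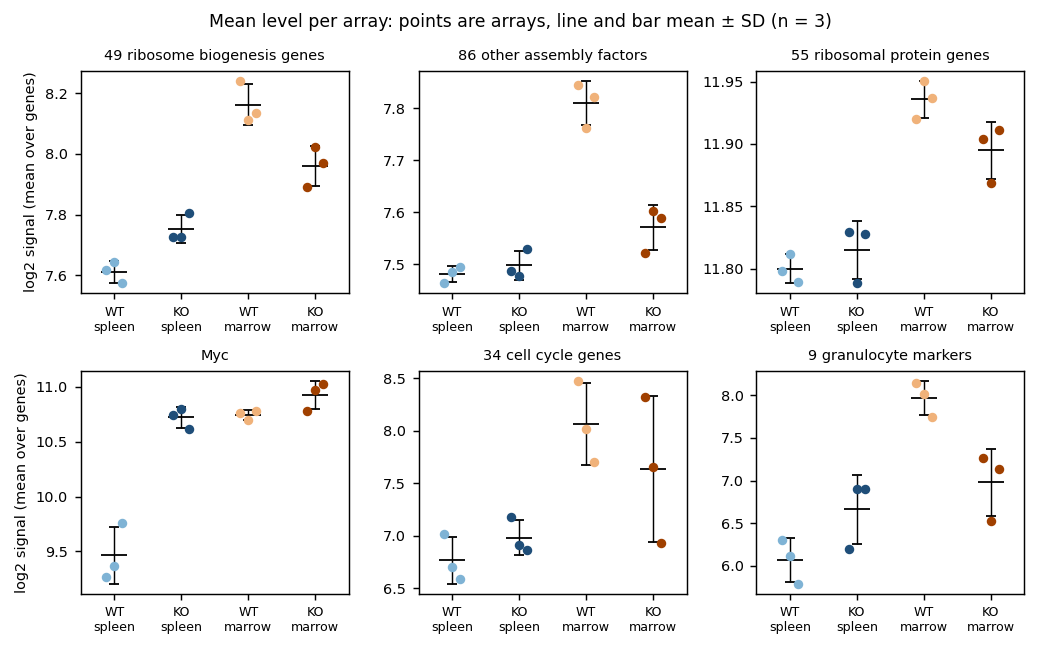
Mean log2 signal over the genes of each list, or the signal of Myc, with a point for each array and the mean and SD of the 3 arrays of a group as a line and bar. By group mean, the members, the other assembly factors, the ribosomal protein genes, the cell cycle genes and the granulocyte markers rank the groups alike. Myc is low in wild type spleen only, and the cell cycle genes spread from 6.93 to 8.32 within knockout bone marrow. Vertical axes differ between panels and do not start at 0.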

How the data were processed

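The authors deposited 1 log2 signal for each probe set and array, made with Affymetrix Expression Console and RMA (background correction, quantile normalization, probe summary) per the submitters' processing notes. Their versions and the build were not given in the sources used here. RNA was extracted with Trizol and amplified with a NuGEN Ovation PicoSL system, per the labels' protocols. Of 35556 probe sets, 21789 had 1 symbol in the platform annotation, 1621 several and 12146 none. Of the 21789, 21698 were found in the RefSeq gene table (GRCm38.p6). Genes with a mean over the 12 arrays above the 40th percentile (5.49) were tested, and no further normalization was applied.

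A mean for each of the 4 groups and the run of array numbers were fitted in limma 3.58.1 (R 4.3.3), with 7 residual and 4.74 prior degrees of freedom. P-values were adjusted over all 11963 tested genes by Benjamini-Hochberg, for 6 comparisons (the knockout effect in each tissue, its average and its difference between tissues, called the interaction, and bone marrow against spleen in each genotype). A gene rose or fell at an adjusted p under 0.05. The fit was tested on simulated data. Summed marker signals are linear and cover each list's measured genes.

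The members and the lists were chosen with earlier results of these data known. Signals by array are given for up to 3 members of each role with the smallest p among those called between genotypes or in the interaction, or else the smallest p over both tissues. Of the other pathway lists, the 4 smallest p over both tissues and called genes may be named, and Myc always. Deviations of arrays of the same replicate number correlated weakly (r of -0.02 to 0.24 in 18 pairs, 6 over 0.1), and no pairing was used. Pairs of unlike number were not correlated, so a weak pairing or shared batch cannot be told from these values. The labels name biological replicates and not which animals they came from, so p-values measure the spread between these samples. Alternatives changed the filter, probe set choice, scaling, run term, arrays fitted, variance model and single arrays.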

Additional observations from a re-analysis of the deposited data

Results flagged for a closer look

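In 5 members every knockout array was above every wild type array in spleen and below every wild type array in bone marrow, a pattern seen in 10.2% of the tested members and in 64 of 11963 tested genes (0.535%). In plain group means the interaction of these members is negative by the way they were picked. It was tested in limma for each, and none passed adjustment over all tested genes. It was -1.09 ± 0.19 (SE) for Gnl3 (adjusted p = 0.0916), -0.76 ± 0.18 for Mrto4 (adjusted p = 0.242) and -1.31 ± 0.34 for Rrs1 (adjusted p = 0.310). It was -0.54 ± 0.18 for Rrp12 (adjusted p = 0.395) and -0.28 ± 0.15 for Ncl (adjusted p = 0.602).

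Rrs1 read 6.80, 6.80 and 6.81 in wild type spleen, 7.79, 7.01 and 7.58 in knockout spleen, 8.09, 8.03 and 8.25 in wild type bone marrow, and 7.10, 7.84 and 7.58 in knockout bone marrow. Its wild type groups were tight and its knockout groups spread widely and overlapped each other. Rrp12 read 5.78, 5.91 and 5.78 in wild type spleen, 6.02, 5.94 and 6.10 in knockout spleen, 6.45, 6.40 and 6.49 in wild type bone marrow, and 5.99, 6.14 and 6.36 in knockout bone marrow. Ncl read 10.57, 10.62 and 10.55 in wild type spleen, 10.81, 10.67 and 10.70 in knockout spleen, 10.98, 11.04 and 10.91 in wild type bone marrow, and 10.89, 10.79 and 10.86 in knockout bone marrow. In all 3 genes, wild type spleen was the lowest group and wild type bone marrow the highest. The order of the genotypes within each tissue was fixed by the way these genes were picked.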

How the results depend on the processing

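No median of the members' differences changed sign under any alternative. Calls of single members were checked for 20 results, and none of these reversed. The calls of other members, such as Fbl, Nop58 and Rrs1 between the wild type tissues and Imp3 and Nip7 over both tissues, were not checked. In bone marrow the count of members that fell (2) was 1 with no filter or after repeated quantile normalization, 4 with a 60th percentile filter or array weights, and 5 after median centring. The replicate number as a block, which the main fit left out, gave 4. The median there (-0.27) became -0.20 after repeated quantile normalization and -0.18 without the run term or with the 2 groups fitted alone. Over both tissues the count (4) was 2 with no filter or after quantile normalization. The interaction median (-0.32) was -0.26 after quantile normalization and -0.38 after median centring. Between the wild type tissues the count (22) was 34 with array weights and the median (0.50) 0.58 after median centring. In knockout the count between tissues was 2 without the run term. Leaving out single arrays gave counts of 2 to 11 in spleen, 0 to 2 in bone marrow, 2 to 5 over both tissues, 8 to 23 between wild type tissues, and 0 for the interaction and between knockout tissues. Over both tissues it was 2 without wild type spleen 1 or 2, knockout spleen 3 or knockout bone marrow 3. The medians ranged from 0.10 to 0.19 in spleen, -0.31 to -0.24 in bone marrow, -0.07 to -0.01 over both tissues, -0.43 to -0.31 for the interaction, 0.47 to 0.58 between wild type tissues and 0.11 to 0.22 between knockout tissues. Of the 20 results checked for single members, 8 kept their call under every alternative. Array intensities carry no depth, and 3 arrays per group limit the precision.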
